A study of Rattus norvegicus with 12 samples.

Results

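Myelin is the membrane that oligodendrocytes wrap around axons, and the genes described here are 38 named genes of that membrane and of the oligodendrocyte lineage. They were sorted by role into structural and membrane proteins (18 genes), glycolipid enzymes (3), metabolic and cytoskeletal proteins of mature oligodendrocytes (7), transcription factors (6) and markers of precursors and newly formed oligodendrocytes (4). Of the 38, 35 matched a probe by accession, name or synonym, with 44 probes in all, and all 35 were tested among 25444 items (14110 named genes and the rest unnamed probes). Gal3st1, Fa2h and Gpr17 had no matched probe and were not analysed here, so Ugt8 alone stood for the glycolipid enzymes.

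RNA came from micropunches of the rostral ventrolateral medulla (RVLM), the brainstem region whose neurons drive sympathetic outflow to the heart and vessels. All animals were male F344 rats, an inbred strain, and no group was treated. The groups were young (3 months), middle-aged (12 months) and aged (24 months), with 3 animals in each, and age was the only labelled difference between them. There were 12 one-colour Agilent arrays, because replicate 3 of each age was hybridised to a pair of arrays, and those were averaged so that n counts animals.

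Compact myelin is held together by basic and membrane-spanning proteins and is rich in cholesterol and in galactolipids, which UDP-galactose ceramide galactosyltransferase (Ugt8) makes from ceramide. Oligodendrocytes arise from precursors marked by Pdgfra and Cspg4, and the transcription factors Sox10, Olig2 and Myrf drive and then maintain the myelinating state. In the brainstem long fibre tracts pass close to the RVLM, so punches of this region can hold white matter as well as neurons. How much of it these punches held was not measured.

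Every value below is the log2 processed signal minus the 75th percentile of its array, so that 0 is the upper quartile of probes and 1 unit is a doubling of signal. Probes differ in brightness for the same amount of RNA, so a value was compared between animals for the same probe and never between genes. All 35 members were well above background on all 12 arrays. Of 10 listed neuron markers of the region 8 were tested, and 7 of these were well above background on all arrays. Tested probes had already passed this flag on all arrays of at least 1 age, so that share is high in part by the filter. Per array, the share of spots that passed this test of brightness was 73.45% to 77.09%, with 0 saturated. The median absolute difference over items was 0.0579 to 0.0627 for a pair of arrays from the same animal and 0.103 to 0.156 for animals of the same age. Slide was partly confounded with age: slide 1 held all young animals and middle-aged animal 1, slide 2 held 4 arrays of middle-aged and aged animals, and slide 3 alone held all ages, from replicate 3.

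At 24 months, Mal, a proteolipid of myelin and of lipid rafts, and Ugt8 fell against 3 months, while Qdpr and Ninj2 rose. Qdpr regenerates tetrahydrobiopterin, the cofactor of tyrosine hydroxylase, and Ninj2 is an adhesion molecule. Thus 4 of 35 members (11.4%) passed, against 2.04% of all items, with limma and Benjamini-Hochberg adjustment over all items at an adjusted p under 0.05. By direction 2 members rose, against 1.57% of all items, and 2 fell, against 0.472%. The median difference over the 35 members was −0.06, beside 0.03 over all items. In bulk RNA of a punch, fewer oligodendrocytes and less RNA per oligodendrocyte cannot be told apart.

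**Figure D1:**
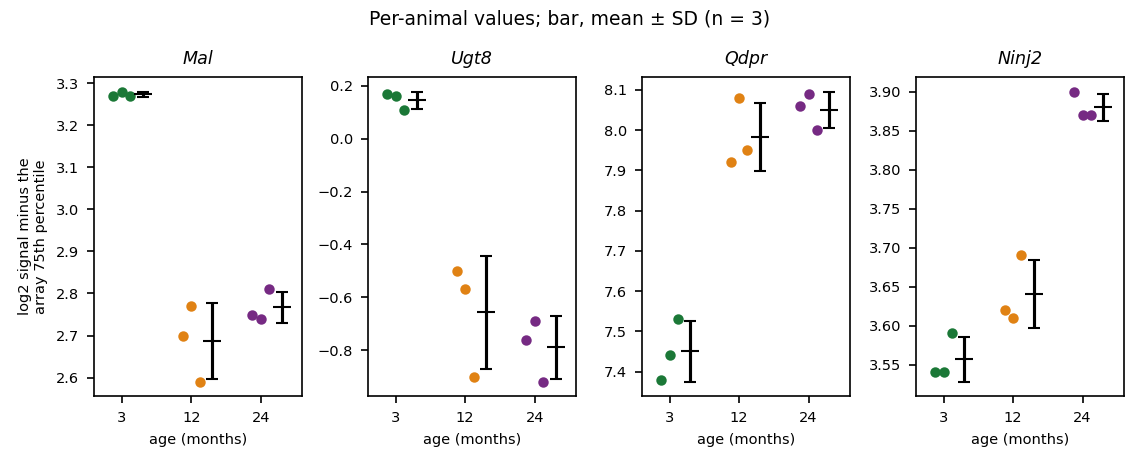
Per-animal values of Mal, Ugt8, Qdpr and Ninj2 (y axis, log2 signal minus the array's 75th percentile, scaled separately for each gene) by age in months (x axis); points are animals and bars are mean ± SD of 3 animals. Mal and Ugt8 sit lower, and Qdpr higher, in all animals of 12 and 24 months than in any of 3 months, whereas Ninj2 stands apart mainly at 24 months.

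Mal read 3.27, 3.28 and 3.27 in the young animals, 2.70, 2.77 and 2.59 in the middle-aged and 2.75, 2.74 and 2.81 in the aged. All 6 older animals lay below all 3 young animals, and the middle-aged and aged values overlapped. The aged group was lower by −0.51 ± 0.07 (log2 difference ± SE, n = 3 per age, 1.42-fold, limma adjusted p = 0.00816), and the middle-aged group by −0.59 ± 0.07 (1.5-fold, adjusted p = 0.0274). The difference between aged and middle-aged was 0.08 ± 0.07.

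Ugt8 read 0.17, 0.16 and 0.11 at 3 months, −0.50, −0.57 and −0.90 at 12 months and −0.76, −0.69 and −0.92 at 24 months. Again every older animal lay below every young animal, with overlap between the older ages. The aged difference was −0.93 ± 0.11 (1.91-fold lower, adjusted p = 0.00467), the largest in size among the 35 members, and the middle-aged difference was −0.80 ± 0.11 (1.75-fold lower, adjusted p = 0.0405). The pair of arrays of middle-aged animal 3 disagreed for this probe, at −0.49 and −1.31. The other Ugt8 probe was not well above background on any array (0 of 12) and gave no measurement.

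Qdpr read 7.38, 7.44 and 7.53 in young animals, 7.92, 8.08 and 7.95 in middle-aged and 8.06, 8.09 and 8.00 in aged animals. Older and young animals did not overlap, and the middle-aged and aged values did. Qdpr was higher by 0.60 ± 0.08 in the aged (1.51-fold, adjusted p = 0.00555) and by 0.53 ± 0.08 in the middle-aged (adjusted p = 0.042). Qdpr is expressed by neurons as well as by oligodendrocytes, so its level is not a measure of oligodendrocytes alone.

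Ninj2 read 3.54, 3.54 and 3.59 at 3 months, 3.62, 3.61 and 3.69 at 12 months and 3.90, 3.87 and 3.87 at 24 months. No age overlapped another, and the step to 24 months was the wider. The aged difference was 0.32 ± 0.06 (1.25-fold, adjusted p = 0.0374), the middle-aged difference 0.08 ± 0.06 (adjusted p = 0.957) and the difference between aged and middle-aged 0.24 ± 0.06.

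Within slide 3, where each age was a single animal and no test was possible, the aged value stood at −0.48 for Mal, −1.06 for Ugt8, 0.48 for Qdpr and 0.26 for Ninj2 relative to the young. Within slide 1, middle-aged animal 1 differed from the young animals by −0.57 for Mal, −0.64 for Ugt8, 0.46 for Qdpr and 0.07 for Ninj2. The directions on these slides were those of all animals. With slide as a block, the aged difference was −0.50 for Mal (adjusted p = 0.0542), −0.98 for Ugt8 (0.0709), 0.50 for Qdpr (0.0452) and 0.29 for Ninj2 (0.176). Of the 4 only the Qdpr call held there. That fit had no term for animal, and young animal 3 and middle-aged animal 3 each entered it on more than 1 slide as separate units. With animal added as a random block, 2 of the 4 calls held, those of Mal (−0.54, limma adjusted p = 0.0208) and Qdpr. Over 22 tested alternatives the aged call held in 22 for Qdpr, 21 for Mal, 19 for Ugt8 and 6 for Ninj2, with adjusted p of Mal, Ugt8 and Ninj2 reaching 0.0542, 0.244 and 0.176 at the highest.

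The stretches of genome just upstream of the start sites of these genes are shown because Mal and Ugt8 fell while Qdpr rose, and because Mobp, Cnp and Opalin hold letters that Sox and basic helix-loop-helix factors of the lineage are known to bind. RefSeq windows of build GRCr8, 250 bases before to 50 bases after the start, matched 27 of the 35 members. The 250 upstream bases are printed 5′ to 3′ on the strand of the gene, with ACAAAG (Sox type, or its reverse complement CTTTGT) and CAGCTG (an E-box, which is its own reverse complement) in capitals:
Mal, chr3:135341424-135341673, minus strand: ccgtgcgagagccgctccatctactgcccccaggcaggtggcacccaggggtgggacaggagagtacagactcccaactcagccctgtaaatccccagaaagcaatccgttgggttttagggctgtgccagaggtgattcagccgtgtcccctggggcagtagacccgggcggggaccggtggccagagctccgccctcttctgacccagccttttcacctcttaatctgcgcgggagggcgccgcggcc
Ugt8, chr2:217007168-217007417, minus strand: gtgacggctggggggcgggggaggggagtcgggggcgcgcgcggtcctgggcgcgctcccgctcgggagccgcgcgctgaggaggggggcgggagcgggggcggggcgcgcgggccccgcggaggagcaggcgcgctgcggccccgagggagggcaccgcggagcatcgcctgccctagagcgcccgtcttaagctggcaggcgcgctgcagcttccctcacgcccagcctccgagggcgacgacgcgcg
Qdpr, chr14:69882526-69882775, plus strand: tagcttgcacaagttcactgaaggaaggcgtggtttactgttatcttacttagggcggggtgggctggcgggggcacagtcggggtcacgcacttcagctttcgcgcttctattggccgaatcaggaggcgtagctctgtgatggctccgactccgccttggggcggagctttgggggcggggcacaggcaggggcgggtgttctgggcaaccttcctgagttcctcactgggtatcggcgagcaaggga
Mobp, chr8:128746982-128747231, plus strand: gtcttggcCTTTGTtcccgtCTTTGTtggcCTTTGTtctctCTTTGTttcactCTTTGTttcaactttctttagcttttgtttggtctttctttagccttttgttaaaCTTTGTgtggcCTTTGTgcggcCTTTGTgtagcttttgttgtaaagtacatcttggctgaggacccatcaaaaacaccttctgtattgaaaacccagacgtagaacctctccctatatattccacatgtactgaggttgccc
Cnp, chr10:86011254-86011503, plus strand: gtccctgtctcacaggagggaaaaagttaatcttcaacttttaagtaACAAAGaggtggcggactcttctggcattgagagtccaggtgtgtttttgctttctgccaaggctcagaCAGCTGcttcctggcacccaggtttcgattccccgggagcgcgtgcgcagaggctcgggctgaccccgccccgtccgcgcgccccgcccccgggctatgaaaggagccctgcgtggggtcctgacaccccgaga
Opalin, chr1:249858191-249858440, minus strand: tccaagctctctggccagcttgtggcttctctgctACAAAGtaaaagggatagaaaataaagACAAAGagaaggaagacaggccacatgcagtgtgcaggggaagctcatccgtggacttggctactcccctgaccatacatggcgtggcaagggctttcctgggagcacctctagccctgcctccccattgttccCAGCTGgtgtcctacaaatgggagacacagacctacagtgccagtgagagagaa

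Over the windows of 300 bases, searched on both strands, ACAAAG was present in 5 of 27 members (18.5%: Mag, Mobp, Cnp, Opalin and Enpp6) and in 18.3% of 27457 promoters. CAGCTG was present in 5 of 27 (18.5%: Cnp, Opalin, Aspa, Enpp6 and Omg) and in 15.1% of promoters. The sterol response letters TCACCCCAC were in 0 of 27 members and in 0.495% of promoters. These shares are close to those of all promoters. Mobp stood apart by repeats, with 8 copies of the Sox letters, all in reverse complement, whose first bases lay at positions −242 to −120 relative to its start. The upstream bases of Mal, Ugt8 and Qdpr held neither motif; 81.2% of those of Ugt8 were G or C, beside a median of 52.0% over all promoters and 58.4% over the 27 members. A match of letters is a description of the window and shows no binding.

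Among the other structural proteins, the difference between aged and young animals was negative for most members, and none besides Mal and Ninj2 passed. Of the 18, 13 had a lower and 5 a higher mean at 24 months, with a median of −0.15. Mbp, the basic protein that binds the cytoplasmic faces of the membrane, read 7.12, 7.37 and 7.32 at 3 months, 7.27, 7.16 and 6.82 at 12 months and 6.95, 6.82 and 6.30 at 24 months. Aged animals lay below young ones, with aged animal 3 the lowest, and the difference was −0.58 ± 0.18 (adjusted p = 0.181).

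Mobp, a basic protein of oligodendrocytes related in function to Mbp, read 5.80, 5.81 and 5.88 in young, 5.66, 5.40 and 5.38 in middle-aged and 5.53, 5.40 and 5.20 in aged animals. Cnp, the cyclic nucleotide phosphodiesterase of non-compact myelin, read 3.36, 3.22 and 3.14, then 3.08, 2.86 and 2.88, then 2.90, 2.84 and 2.59 at the same ages. In both genes all older animals were below all young ones. The aged difference was −0.46 ± 0.11 for Mobp (adjusted p = 0.0779) and −0.46 ± 0.11 for Cnp (adjusted p = 0.0806), and neither passed.

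Mog, a glycoprotein of the outer myelin surface, read 4.02, 4.04 and 4.26 at 3 months, 3.76, 3.65 and 3.81 at 12 months and 3.80, 3.75 and 3.74 at 24 months. Cldn11, which forms the tight junctions of central myelin, read 2.07, 2.16 and 2.26, then 1.92, 1.46 and 1.54, then 1.77, 1.80 and 1.57. For both, older animals lay wholly below young ones, with the mean at 12 months no higher than that at 24 months. The aged differences were −0.34 ± 0.09 for Mog (adjusted p = 0.101) and −0.45 ± 0.13 for Cldn11 (adjusted p = 0.145). Gjb1, the connexin that couples layers of myelin, differed by −0.40 ± 0.16 (adjusted p = 0.289), with aged animal 3 at −0.54 and the other two at −0.04 and −0.05. Pllp, a proteolipid, was narrow within each age, at 4.13 to 4.28 in young and 3.99 to 4.01 in aged animals, and differed by −0.20 ± 0.07 (adjusted p = 0.192).

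Single animals stood apart in a few adhesion and cytoskeletal genes. Mag, the glycoprotein of the membrane next to the axon, read 4.14 to 4.36 in young animals, but 2.69 in middle-aged animal 1 and 3.39 in aged animal 2 against 4.17 to 4.44 in the other 4 older animals. Its aged difference of −0.21 ± 0.43 was smaller than its error, and it was 0.12 without aged animal 2. Ermn, a cytoskeletal protein of late oligodendrocytes, was at 0.35 in middle-aged animal 2 and at 1.17 to 1.32 in the other 8 animals. Omg, a myelin glycoprotein, was at 2.41 in that same animal and at 2.81 to 3.00 elsewhere. These low readings were in 1 probe per gene, and no further probe was matched for any of the 3. Middle-aged animal 2 is not part of the aged and young means of Ermn and Omg. Their aged differences were −0.02 ± 0.21 and −0.10 ± 0.15, and neither passed. For Omg the aged animals lay below the young ones.

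Bcas1, which marks oligodendrocytes that are building myelin, stood on the higher side with Ninj2. Bcas1 read 6.55, 6.45 and 6.56 in young, 6.61, 6.82 and 6.74 in middle-aged and 6.87, 6.83 and 6.99 in aged animals. The ages were ordered without overlap, the aged difference was 0.38 ± 0.08, and it narrowly missed the threshold (adjusted p = 0.0606). Opalin, a sialylated membrane glycoprotein, was low in the middle-aged alone, at 3.68, 3.74 and 3.60 against 3.89 to 3.98 in young and 3.83 to 3.96 in aged animals; the middle-aged difference was −0.25 ± 0.07 (adjusted p = 0.423) and that between aged and middle-aged 0.22 ± 0.07. The remaining structural members, Nfasc, Plekhb1, Pmp22 and Tspan2, had aged differences of 0.11, 0.06, 0.01 and −0.06, each with overlapping animals.

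**Figure D2:**
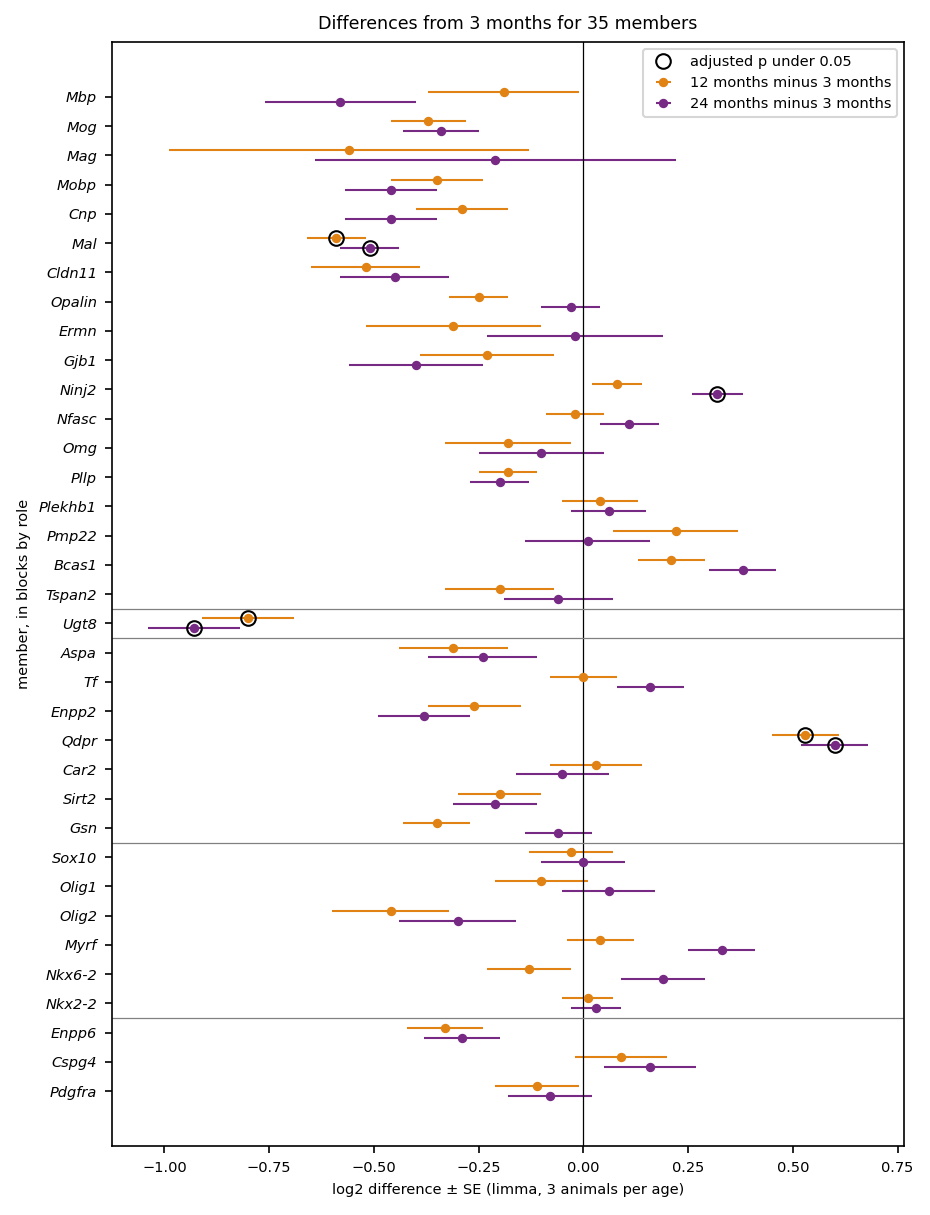
Log2 difference from 3 months ± SE (x axis) for each of the 35 members (y axis), in blocks from top to bottom of structural proteins, the glycolipid enzyme, metabolic and cytoskeletal proteins, transcription factors and precursor markers; orange is 12 months and purple 24 months, and circled points passed at an adjusted p under 0.05. Ugt8 and Mal lie farthest to the left among circled points and Qdpr farthest to the right, while the transcription factors lie on both sides of 0.

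Of the 7 metabolic and cytoskeletal genes, Qdpr rose and the other 6 did not pass. Enpp2 (autotaxin), which makes lysophosphatidic acid, read 4.47, 4.22 and 4.45 at 3 months, 4.12, 4.02 and 4.22 at 12 months and 4.15, 3.99 and 3.86 at 24 months. Older animals were at or below the lowest young animal, and the aged difference was −0.38 ± 0.11 (adjusted p = 0.133). Aspa, which releases acetate from N-acetylaspartate for lipid synthesis, read 1.67, 1.66 and 1.67 at 3 months, 1.32, 1.25 and 1.48 at 12 months and 1.53, 1.12 and 1.61 at 24 months. Its young animals were nearly alike and above all older ones, and its aged difference was −0.24 ± 0.13 (adjusted p = 0.404).

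Tf, the iron carrier transferrin that oligodendrocytes secrete, read 7.16 to 7.25 in young and 7.29 to 7.40 in aged animals, without overlap (0.16 ± 0.08, adjusted p = 0.361). Gsn, which severs actin filaments, read 4.58, 4.38 and 4.49 at 3 months, 4.07, 4.08 and 4.24 at 12 months and 4.38, 4.42 and 4.46 at 24 months. The middle-aged animals of Gsn were below both other ages (−0.35 ± 0.08 against young, adjusted p = 0.241), and the aged were level with the young. Sirt2, a tubulin deacetylase, and Car2, a carbonic anhydrase, had aged differences of −0.21 and −0.05.

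None of the 6 transcription factors passed in any comparison. Myrf, which switches on the myelin genes, read −0.46, −0.57 and −0.42 at 3 months, −0.56, −0.39 and −0.38 at 12 months and −0.21, −0.18 and −0.06 at 24 months. The aged animals were above all others, by 0.33 ± 0.08 against young (adjusted p = 0.098) and 0.29 ± 0.08 against middle-aged animals. The aged difference was positive for 12 of the 35 members, Myrf among them. For the other 23 members, among them the myelin genes Mbp, Mog and Cnp, the aged difference was negative. None of these 4 named genes passed, and a link between Myrf and the others was not tested.

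Olig2, the lineage factor, read −2.55, −2.38 and −2.17 at 3 months, −2.73, −2.76 and −3.00 at 12 months and −2.58, −2.91 and −2.50 at 24 months. Middle-aged animals lay below the young ones (−0.46 ± 0.14, adjusted p = 0.468), and the aged animals overlapped with both. Nkx6-2, a homeodomain factor of late oligodendrocytes, read 3.58, 3.49 and 3.64, then 3.35, 3.36 and 3.62, then 3.83, 3.79 and 3.66, with an aged difference of 0.19 ± 0.10 (adjusted p = 0.38). Sox10, Olig1 and Nkx2-2 differed by 0.00, 0.06 and 0.03 between aged and young animals, with SE of 0.10, 0.11 and 0.06. The single probes of Olig2 and Nkx2-2 were dim, with processed signals of 82.4 to 142 and 79.4 to 115.

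Of the precursor group, Enpp6, a choline phosphodiesterase of newly formed oligodendrocytes, read 2.48, 2.39 and 2.61 at 3 months, 2.12, 2.07 and 2.29 at 12 months and 2.30, 2.19 and 2.12 at 24 months. All older animals were below all young ones, and the aged difference was −0.29 ± 0.09 (adjusted p = 0.193). Cspg4, the NG2 proteoglycan, read 2.17 to 2.44 in young and 2.40 to 2.50 in aged animals (0.16 ± 0.11), and Pdgfra, the receptor for platelet-derived growth factor, read 2.02 to 2.42 and 2.09 to 2.21 (−0.08 ± 0.10). Both are also expressed by cells of vessel walls or meninges, and their ages overlapped.

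**Figure D3:**
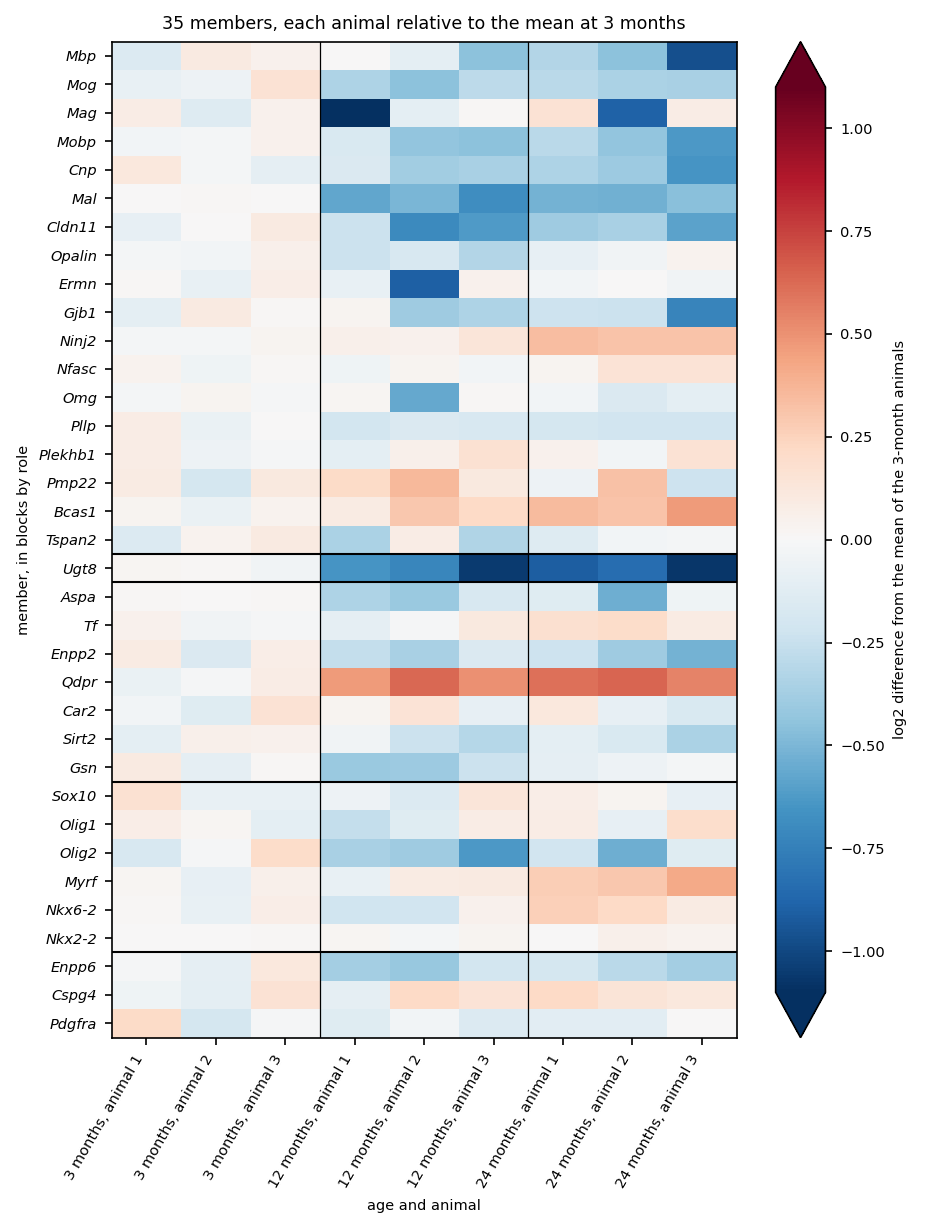
Each animal's log2 difference from the mean at 3 months (colour, blue lower and red higher) for the 35 members (rows, in blocks by role) and the 9 animals (columns, by age). Ugt8 and Mal are blue and Qdpr red in all 6 older animals, and dark cells beside pale ones of the same age are Mag in middle-aged animal 1 and aged animal 2, Ermn in middle-aged animal 2 and, less sharply, Mbp and Gjb1 in aged animal 3.

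At an unadjusted p under 0.05, 11 members were lower and 4 higher in aged than in young animals, so 42.9% of 35 against 15.2% of all items. By direction, 4.93% of all items were lower and 10.3% higher at that threshold. Aged and young animals did not overlap in 14 members on the lower side (40.0%, against 8.67% of all items) and in 6 on the higher side (17.1%, against 13.9%). The lower side was thus more common among the members than among all items, and the higher side was close to the background. The members are correlated genes of the same cell type, so these counts are not 35 independent readings.

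Between 12 and 3 months, 3 members passed (8.57%, against 0.2% of all items): Mal and Ugt8 fell, where 0.0393% of all items fell, and Qdpr rose, where 0.161% rose. At an unadjusted p under 0.05, 15 of 35 members differed (42.9%, against 6.36% of all items), 13 of them lower and 2 higher, against 2.63% and 3.73% of all items, and 13 members (37.1%, against 4.61%) lay without overlap below the young. On the higher side 3 members did not overlap (8.57%, against 6.7%). The median difference was −0.19, beside 0.01 over all items. These calls were fragile: each of the 9 fits that left out 1 animal ended the Ugt8 and the Qdpr call, and 8 of the 9, all but that without aged animal 3, ended the Mal call, with adjusted p of up to 0.127 for Mal, 0.168 for Ugt8 and 0.17 for Qdpr. Both comparisons use the same 3 young animals, so a high or low young value moves them together.

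Between 24 and 12 months, 0 of 35 members passed, against 0.0118% of all items (3 of them). At an unadjusted p under 0.05, 5 members were higher (Opalin, Myrf, Nkx6-2, Ninj2 and Gsn), with 7.59% of all items higher, and 0 were lower, with 3.12% of all items lower. There was no overlap in 7 members on the higher side (20.0%, against 10.4%) and in 0 on the lower side (against 6.56%). The median difference was 0.07, beside 0.02.

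In the order of the 3 group means, 17 of 35 members (48.6%, against 29.1% of all items) were lowest at 12 months, among them Mal, Mog, Cldn11, Opalin, Aspa, Olig2 and Gsn. Another 8 were ordered downward at both steps (22.9%, against 16.7% of all items: Mbp, Mobp, Cnp, Ugt8, Gjb1, Enpp2, Pllp and Sirt2). Upward at both steps were 8 more (22.9%, against 26.1%: Tf, Myrf, Nkx2-2, Cspg4, Ninj2, Qdpr, Plekhb1 and Bcas1). Car2 and Pmp22 were highest at 12 months (5.71%, against 28.0%). The order counts means whatever their spread, and as the preceding comparison showed, no member passed between 12 and 24 months. By the moderated F test over the ages, Mal, Ugt8 and Qdpr differed (adjusted p = 0.0111, 0.0114 and 0.0118), so 3 of 35 members, against 1.15% of all items.

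Members measured by more than 1 kept probe showed how far a call rests on the probe. The 60-base probes below were picked in part for having at least 1 reading frame free of stop codons. Those of Tspan2 and Opalin span introns, at chr2:197851137-197855316 on the plus strand and chr1:246351515-246353726 on the minus strand of build rn3 per the file headers. The single Mag probe lies at chr1:86033067-86033126 on the minus strand. Whether these probes lie in coding sequence was not determined. They are printed 5′ to 3′ because the Tspan2 probe read otherwise than its partner, the Opalin probe read alike, and the Mag probe carries the isolated low values:
Tspan2: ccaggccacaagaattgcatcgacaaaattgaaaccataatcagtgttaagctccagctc
Opalin: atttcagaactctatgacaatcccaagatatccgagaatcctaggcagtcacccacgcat
Mag: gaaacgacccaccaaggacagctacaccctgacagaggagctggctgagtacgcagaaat

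Tspan2, a tetraspanin of oligodendrocytes, differed by −0.31 ± 0.08 between aged and young animals with the intron-spanning probe and by −0.06 ± 0.13 with the brighter probe used above. For Opalin the spanning probe gave −0.04 ± 0.08 and the brighter probe −0.03 ± 0.07. Mobp had 3 probes, at −0.46 ± 0.11, −0.43 ± 0.07 and −0.17 ± 0.11; in a fit with every kept probe as its own item, the second passed (adjusted p = 0.0257) and the others did not (0.0806 and 0.516). The third spans an intron upstream of the other two. Both Mbp probes (−0.58 and −0.53) and both Mog probes (−0.34 and −0.32) were alike, Bcas1 gave 0.38 and 0.18, and Nkx6-2 gave 0.19 with its bright probe and −0.23 with a dim one, whose signal was 67.2 to 106 against 6290 to 11600.

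**Figure D4:**
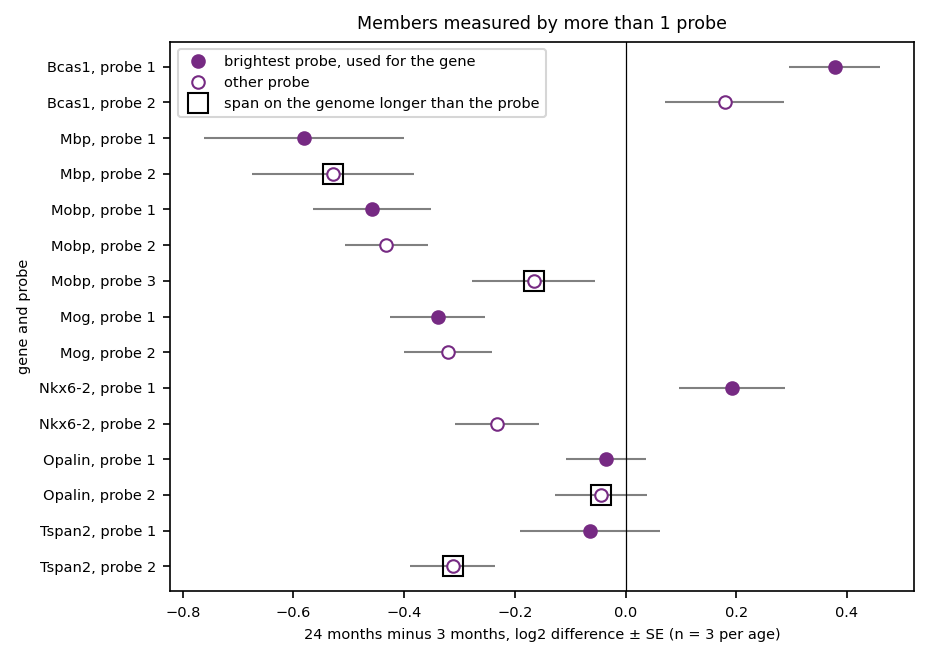
Log2 difference between 24 and 3 months ± SE (x axis) for each kept probe of the 7 members with more than 1 (y axis); filled points are the brightest probe, which stood for the gene, open points the other probes, and squares mark probes whose span on the genome is longer than the probe. The Nkx6-2 probes fall on opposite sides of 0, and the third Mobp and second Tspan2 probes lie away from their partners.

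A wider list of mature oligodendrocyte genes had 36 tested between aged and young animals. On that list 22 genes had lower and 14 higher means, with a median of −0.10. Of these genes 1 fell and 0 rose, against 0.472% and 1.57% of all items. At an unadjusted p under 0.05, 7 were lower and 6 higher, against 4.93% and 10.3% of all items. Adamts4, a metalloprotease, and Nipal4, a magnesium transporter, had differences of −0.52 ± 0.16 and −0.48 ± 0.16 that did not pass. Of 23 further precursor genes 0 passed, with a median of −0.11. At an unadjusted p under 0.05, 4 were lower and 0 higher, against the same shares of all items.

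Lists of lipid genes moved in part, and which cells of the punch carried the differences was not tested. Of 23 cholesterol synthesis genes 15 fell and 0 rose between 3 and 24 months, against 0.472% and 1.57% of all items, with a median of −0.48. Of 27 genes of sphingolipids and very long fatty acids, Scd, the stearoyl desaturase, fell by 0.96 ± 0.09 (adjusted p = 0.00247), and Srebf1, a regulator of lipid synthesis, rose by 0.52 ± 0.08 (adjusted p = 0.0142). The median of that list was 0.02. Of 17 genes of the axon-glia contact and the node 0 passed, and the 3 largest differences were those of Lgi3 (−0.33 ± 0.22), Cntn1 (−0.30 ± 0.10) and Rtn4r (−0.27 ± 0.38).

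**Figure D5:**
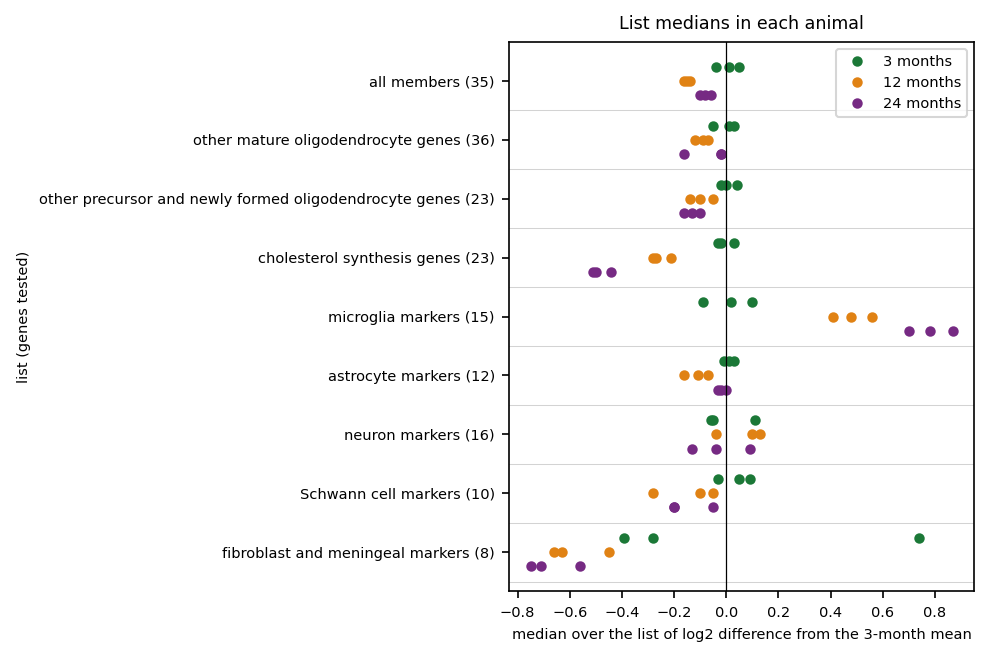
Median over each list of the log2 difference from the mean at 3 months (x axis), 1 point per animal coloured by age, for the members and for 8 other lists (y axis, genes tested in brackets). The member medians of all older animals lie below those of the young ones, microglia markers lie to the right, and the fibroblast and meningeal markers of young animal 1 stand apart at 0.74.

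In each animal the median over the 35 members, relative to the young mean, was −0.04 to 0.05 at 3 months, −0.16 to −0.14 at 12 months and −0.10 to −0.06 at 24 months. The ages did not overlap, and the middle-aged were the lowest. The nearest young and aged medians were −0.04 and −0.06, beside a pooled SD within ages of 0.0286. Under the alternatives the member median difference between aged and middle-aged ran from 0.0068 on slide 3 alone to 0.0823 with the series matrix. With median centring that difference was 0.0148. Of 15 microglia markers 11 rose at 24 months, against 1.57% of all items, with animal medians of 0.70 to 0.87. The summed level of the microglia markers was 1.76 to 2.06 times the young mean. Of 16 neuron and 12 astrocyte markers 0 passed, with medians of −0.05 and 0.01 and summed levels of 0.866 to 1.04 and 1.01 to 1.07 times the young mean in aged animals. Of 5 red blood cell markers 0 passed, with a median of 0.87. At an unadjusted p under 0.05, 4 of these were higher at 24 months, against 10.3% of all items. Their summed level was 0.825 to 1.18 times the young mean in young, 0.879 to 0.93 in middle-aged and 1.3 to 1.88 in aged animals. Of 8 neuron markers of the region 0 passed and 7 had a lower mean at 24 months, with a median of −0.31; their summed level was 0.925 to 1.05 times the young mean in young and 0.684 to 1.06 in aged animals. Of 14 endothelial and mural and 6 choroid plexus and ependymal markers 0 passed, with medians of −0.11 and −0.06.

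Markers of Schwann cells and of the meninges were uneven among the young animals. Prx, a Schwann cell gene, read −4.96 and −3.49 in young animals 1 and 2 against −6.25 to −5.40 in the other 7 animals. Its probe was well above background on only 7 of the 12 arrays. Of 10 Schwann cell markers 0 passed and 8 were well above background on all arrays; their summed level was 0.879 to 1.19 times the young mean in young, 0.716 to 1.09 in middle-aged and 0.746 to 0.92 in aged animals. Of 8 fibroblast and meningeal markers 0 passed. At an unadjusted p under 0.05, 7 of these were lower at 24 months, against 4.93% of all items. Their summed level was 1.6 times the young mean in young animal 1, 0.696 and 0.703 in the other young animals and 0.754 to 1.02 in the older ones. Mal and Ugt8 read 3.27 and 0.17 in young animal 1, 3.28 and 0.16 in young animal 2 and 3.27 and 0.11 in young animal 3. Without young animal 1 or 2 the aged calls of Mal, Ugt8 and Qdpr held, and that of Ninj2 did not. The part of these cells, of microglia, of blood or of the region's neurons in the differences of the members was not tested.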

How the data were processed

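RNA of 9 animals on 12 arrays was analysed, grouped by the age in the labels. The deposited array files give linear intensity per spot from Agilent Feature Extraction 9.5.1.1, which the authors ran; per the file headers, the processed signal is background-subtracted and spatially detrended. Other columns of the deposited files are flags (0 or 1) for outlier, saturated and well-above-background spots. The deposited series matrix holds a score with mean 0 and SD 1 per array, whose log base and choice of features are not known; it served as an alternative only.

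Control spots and outlier spots (57 to 140 of 43379 per array) were left out. Signals were taken as log2, spots of a probe were averaged, each array's 75th percentile was subtracted, and paired arrays were averaged per animal. Of 41012 probes, 29797 were kept, those above background, by the scanner software's flag, on all arrays of 1 age or more. The brightest kept probe stood for a gene, and 25444 items complete in all animals were tested. Names came from RefSeq (GRCr8) by accession, name or synonym, and otherwise from the files.

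Group means of all 9 animals were fitted with limma 3.58.1 (R 4.3.3), checked on simulated data, with two-sided p-values adjusted by Benjamini-Hochberg over all items. "Rose" and "fell" mark adjusted p under 0.05. Named were all members that passed in any comparison and the 3 of largest difference per role, then the rest by range; of other lists, the genes that passed or else at most 3. The members and lists were chosen with earlier results of these data known. Alternatives covered background correction, normalization, filter, probe choice, slide, paired arrays, replicate block and each animal left out; slide with animal as a random block, the values within slides 1 and 2, and the fit by probe were added after seeing the data. The number of arrays limits the precision. Some genes of the other lists that passed or differed most are not reported here.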

Additional observations from a re-analysis of the deposited data

How the results depend on the processing

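No called difference of a member, nor the member median between aged and young, changed sign under any alternative, and 0 members passed between 24 and 12 months in any. Differences that did not pass were less stable: the sign turned under at least 1 alternative for 13 of 35 members between aged and young, 11 between middle-aged and young and 17 between aged and middle-aged. Between aged and young these were Nkx6-2 (0.19 as reported, −0.07 to 0.24), Cspg4 (−0.10 to 0.24), Mag (−0.86 to 0.12), Olig1 (−0.02 to 0.46), Car2 (−0.31 to 0.03), Pmp22 (−0.34 to 0.13), Ermn, Gsn, Nkx2-2, Omg, Pdgfra, Plekhb1 and Sox10. Ugt8 between aged and middle-aged ran from −0.30 to 0.39. The count of all items called between aged and young animals, 520 as reported, was 310 with normexp, 288 without a filter on dim probes, 215 with slide as a block, 327 with slide and a random animal block and 343 with only the groups compared, and 271 to 510 with 1 animal left out. For middle-aged against young, 51 as reported, these counts were 20, 5, 24, 18 and 3, and 2 to 26 with 1 animal left out. For aged against middle-aged, 3 as reported, the count was 1 with quantile normalization, median centring, slide and random animal block, or only the groups compared, 0 with the series matrix or without a filter, 26 with 12 arrays and a random animal block, and 0 to 4 with 1 animal left out.

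Members called between aged and young, 4 as reported, numbered 1 with slide as a block, 2 with slide and a random animal block, 7 with 12 arrays and a random animal block (Bcas1, Cnp, Mog and Myrf were called there, and Ugt8 was not, adjusted p = 0.244) and 3 to 4 with 1 animal left out. Between middle-aged and young, 3 as reported, they numbered 1 with the series matrix, slide, or slide and random animal block, 0 without a filter or with only the groups compared, and 0 to 1 with 1 animal left out. By the F test, 3 as reported, they numbered 1 with slide as a block and 0 to 3 with 1 animal left out: 0 without young animal 2 and 1 without young animal 1 or young animal 3. The median member difference of −0.06 was −0.12 with quantile normalization, −0.11 with median centring, −0.14 with slide, −0.12 with slide and random animal block and −0.10 on slide 3 alone, and −0.11 to −0.06 with 1 animal left out, the lowest being that without young animal 2.

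Same-numbered animals did not deviate together (correlations of −0.411 to 0.37), so the numbers were not taken as pairs. With the replicate block, 8 items and 0 members passed between middle-aged and young animals, 0 items between aged and middle-aged, and 1 member by the F test.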
